A study of Macaca mulatta with 12 samples.

Results

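HSD11B1, DHRS9 and HSD17B8 are 3 genes of the short-chain dehydrogenase/reductase superfamily, and their messenger RNA was followed here through the end of the luteal phase in the rhesus macaque corpus luteum. The members are the probe sets that the platform annotation assigns to exactly 1 of these genes, and that gave 3 probe sets, 1 per gene, of 52707 tested. The genes were picked because their signal was lower in late glands, so their differences from the mid-late group are given as a description with no test.

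The corpora lutea came from female rhesus macaques with normal menstrual cycles and no treatment named in the labels, and each gland was hybridised to 1 one-colour array. The mid-late group holds 4 glands collected on days 10 to 12 after the midcycle LH surge and is the study's baseline. The late functional group holds 4 glands of days 14 to 16 from animals with serum progesterone above 1.5 ng/ml, and the late regressed group holds 4 glands of the same days with serum progesterone below 0.5 ng/ml. The strain and age of the animals, and the day and progesterone value of each, were not used here. A whole gland is a mixture of steroidogenic luteal cells, vessels, fibroblasts and leukocytes, so fewer cells of a type and less RNA per cell cannot be told apart. Values are log2 array signals on the deposited scale, in which a difference of 1 is a 2-fold difference, and they cannot be compared between probe sets as levels.

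Short-chain dehydrogenases are NAD(H)- or NADP(H)-dependent enzymes that interconvert hydroxyl and keto groups on steroids, retinoids, prostaglandins and fatty acids. HSD11B1 sits in the endoplasmic reticulum and mainly reduces inactive cortisone to active cortisol, with NADPH regenerated there by H6PD. DHRS9 oxidises retinol and the 3-alpha-hydroxyl group of steroids such as allopregnanolone. HSD17B8 is a mitochondrial enzyme that oxidises oestradiol and, together with CBR4, forms the ketoacyl reductase of mitochondrial fatty acid synthesis. In the primate ovary cortisol production by HSD11B1 is a known feature of luteinised cells.

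All 12 arrays had medians between 4.31 and 4.43. On late regressed arrays 2 and 3 the expression profile stood apart from that of the other arrays (first principal component 93.2 and 81.6, others from -43 to 12.6), and array 2 had the largest 3′ to 5′ difference of control transcripts (2.52, others from 0.46 to 0.7). The differences of the 3 genes and most named calls are given with and without these arrays. Of 12 luteal cell markers 8 were measured, STAR and INHA among them, and none of these lay at low signal, while CYP11A1 and LHCGR had no probe set under their symbol. The mean of the 8 ran from 11.01 to 11.18 in mid-late glands, from 10.48 to 10.97 in late functional ones and from 8.59 to 10.40 in late regressed ones. The mean of 13 of 16 macrophage markers ran from 6.36 to 7.92, from 8.12 to 8.20 and from 7.40 to 9.04 in the same groups, with 1 of the 13 called higher in late regressed against mid-late glands. The mean of 9 of 10 fibroblast markers ran from 7.91 to 8.70, from 8.28 to 8.62 and from 8.52 to 8.88, with 5 of 9 called higher there, and that of 11 of 12 endothelial markers from 8.29 to 8.42, from 8.41 to 8.56 and from 8.39 to 8.69, with 4 of 11 called higher, where 7.60% of all genes were. Without late regressed arrays 2 and 3 the macrophage call, CYBB, was lost (limma adjusted p = 0.155). Of the 4 fibroblast calls with the largest differences, COL14A1 (0.264), DPT (0.123) and DCN (0.149) were lost and FBLN1 (0.0328) was kept. Of the endothelial calls, TEK (0.14), SOX17 (0.0786) and ERG (0.0984) were lost and CLDN5 (0.0243) was kept. With all arrays, 0 of 2 other CYBB probe sets and 0 of 3 other COL14A1 probe sets were called higher. The counts were 1 of 2 for DPT, 4 of 4 for DCN and 2 of 2 for FBLN1. They were 0 of 1 for TEK and SOX17 each and 0 of 2 for ERG. The mean of 674 low-signal probe sets with the identifier prefix NC was lower in both late groups, from 3.53 to 3.61 in late functional and from 3.48 to 3.58 in late regressed against 3.65 to 3.75 in mid-late glands. The part of the marker shifts in the differences below was not tested, and the NC mean and the 3′ to 5′ difference were each tried as a covariate. The NC means of mid-late and late glands did not overlap, so a fit with that covariate cannot well separate it from the step between these groups.

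HSD11B1, the cortisol-forming enzyme, was measured at 11.55, 11.59, 10.92 and 11.32 on mid-late arrays 1 to 4. Late functional arrays gave 10.37, 10.25, 9.70 and 8.54, and late regressed arrays gave 8.99, 8.31, 7.31 and 8.25. Every late gland lay below every mid-late gland, and late functional gland 4 lay inside the range of the late regressed glands. The group means were 11.35 ± 0.31 (SD, n = 4), 9.71 ± 0.84 (n = 4) and 8.22 ± 0.69 (n = 4). The late functional mean was 3.1-fold below mid-late (log2 difference -1.63, SE 0.41) and the late regressed mean 8.75-fold below it (log2 difference -3.13, SE 0.41). Of the whole decline between mid-late and late regressed means, 52.1% was present in glands whose animals still had progesterone above the limit. Such shares, given for each of the 3 genes, have no interval and change with the settings, because the differences from mid-late moved unequally. With the mean of the NC probe sets as a covariate these differences were -0.88 and -2.24, and without late regressed arrays 2 and 3 the second was -2.73.

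DHRS9, the retinol and 3-alpha-hydroxysteroid oxidising enzyme, was measured at 9.54, 9.31, 10.09 and 10.58 on mid-late arrays 1 to 4. Late functional arrays gave 9.38, 8.68, 7.79 and 7.03, and late regressed arrays gave 4.84, 6.71, 7.24 and 6.90. Late functional gland 1 overlapped the mid-late range, late functional gland 4 overlapped the late regressed range, and late regressed gland 1 lay far below the others, close to the low-signal level of 4.64 (the 95th percentile of the NC probe sets). The group means were 9.88 ± 0.57 (SD, n = 4), 8.22 ± 1.03 (n = 4) and 6.42 ± 1.08 (n = 4). The late functional mean was 3.16-fold below mid-late (log2 difference -1.66, SE 0.57) and the late regressed mean 11-fold below it (log2 difference -3.46, SE 0.57). Both differences were larger when the fit held the NC mean, at -2.40 and -4.33. The late functional group held 48% of the whole decline, and without late regressed arrays 2 and 3 the late regressed difference was -4.01. DHRS9 had the widest spread of the 3 genes in every group, with ranges of 1.28, 2.35 and 2.40 against 0.66, 1.83 and 1.68 for HSD11B1.

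HSD17B8, the mitochondrial oestradiol and ketoacyl enzyme, was measured at 8.49, 8.66, 8.47 and 8.45 on mid-late arrays 1 to 4. Late functional arrays gave 8.20, 8.15, 8.10 and 7.98, and late regressed arrays gave 8.17, 7.80, 7.47 and 7.79. All late glands lay below all mid-late glands, and late regressed gland 1 stayed inside the late functional range. The group means were 8.52 ± 0.10 (SD, n = 4), 8.11 ± 0.10 (n = 4) and 7.81 ± 0.29 (n = 4). The late functional mean was 1.33-fold below mid-late (log2 difference -0.41, SE 0.12) and the late regressed mean 1.64-fold below it (log2 difference -0.71, SE 0.12), with 58.2% of the decline present in late functional glands. The differences were smaller than those of the other 2 genes on the log2 scale, and the spread within groups was smaller too. With the NC mean as a covariate they were -0.17 and -0.43, and without late regressed arrays 2 and 3 the second was -0.54.

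**Figure D1:**
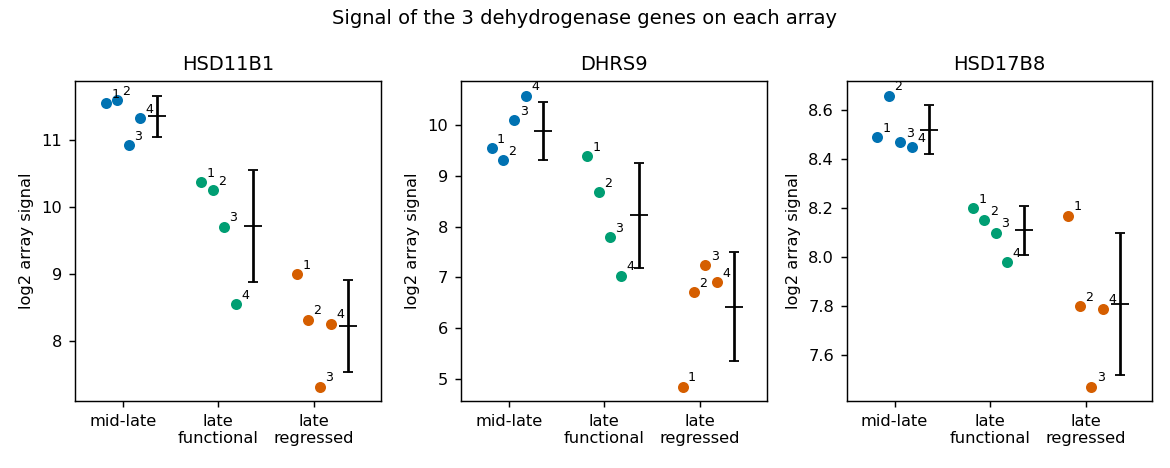
Log2 array signal of HSD11B1, DHRS9 and HSD17B8 in each gland, by group (points numbered by array; bars are mean ± SD, n = 4 per group; the vertical scales differ and do not start at 0). The group means step down from mid-late through late functional to late regressed for each gene, and late regressed array 1 is the lowest for DHRS9 at 4.84 but the highest for HSD11B1 and HSD17B8.

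All 3 genes had late regressed glands wholly below mid-late glands, where 9.96% of all 14132 genes did, and HSD11B1 and HSD17B8 had late functional glands wholly below them, where 8.50% of genes did. These counts follow from how the genes were picked. The order of the group means was mid-late, late functional, late regressed for each gene, and the last 2 overlapped in every case.

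The 2 late groups were collected on the same days and differ in serum progesterone, and this comparison was not the one the genes were chosen on, although the same late arrays entered the choice. A choice for falls in late glands can favour a low late regressed mean, so the tests below are not independent of it. The 95% intervals below are adjusted neither for that choice nor for the number of probe sets tested. The late regressed mean was lower for each gene, and 3 of 4 late regressed glands lay below the lowest late functional gland for HSD11B1, DHRS9 and HSD17B8 alike. The groups overlapped for all 3 genes, where 3.28% of all genes had late regressed glands wholly below late functional ones, and none of the 3 differences passed limma's test over all probe sets. HSD11B1 was 1.50 lower (SE 0.41, 95% interval -2.39 to -0.61, adjusted p = 0.227). DHRS9 was 1.80 lower (SE 0.57, interval -3.05 to -0.55, adjusted p = 0.267). HSD17B8 was 0.30 lower (SE 0.12, interval -0.57 to -0.02, adjusted p = 0.384). Exact two-sided permutation tests over the 8 late glands gave p = 0.0571, 0.0571 and 0.114, or 0.0857, 0.0857 and 0.114 adjusted over the 3 genes, with 0.0286 the smallest p that 4 against 4 allows. In this comparison limma called 0.00708% of genes, a single gene.

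For HSD11B1 the adjusted p came closest to the threshold without late functional gland 4 (0.0512, difference -1.89), the gland with the lowest signal of its group. The difference of HSD17B8 between the late groups shrank to -0.18 without late regressed gland 3 and to -0.13 without glands 2 and 3 together, while DHRS9 grew to -2.35 without these 2 glands.

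Within the late functional group the 3 genes ranked the glands alike, with gland 1 highest, then gland 2, gland 3 and gland 4. In that group HSD11B1 spanned 1.83, DHRS9 2.35 and HSD17B8 0.22 on the log2 scale, and gland 4 also had the lowest mean of luteal markers, 10.48 against 10.94, 10.97 and 10.73 in glands 1 to 3. That mean includes HSD3B2, at 10.52, 10.43, 9.88 and 9.04 in glands 1 to 4, whose profile was close to that of HSD11B1 (below). The macrophage mean of gland 4 (8.16) was inside the range of the group, and its 3′ to 5′ difference (0.61) equalled the highest of the group. Gland 4 also had the highest endothelial mean, 8.56 against 8.51, 8.42 and 8.41 in glands 1 to 3. Its mean of 4 smooth muscle and pericyte markers was the lowest, 8.66 against 8.88, 8.90 and 9.33. The first principal component rose from gland 1 to gland 4, at -20.3, -13, -7.8 and 2.7. What part these had in the order of the 3 genes was not tested. In the late regressed group HSD11B1 and HSD17B8 again ranked the glands alike, with gland 1 highest and gland 3 lowest. DHRS9 gave the reverse of that order, with gland 3 highest and gland 1 lowest. Late regressed gland 1 kept the highest luteal marker mean of its group (10.40) and STAR at 0.02 above the mid-late mean of that gene, beside DHRS9 at -5.04 from its own mid-late mean.

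As a description over the 12 arrays, Pearson's r was 0.96 between HSD11B1 and HSD17B8, 0.80 between HSD11B1 and DHRS9 and 0.65 between DHRS9 and HSD17B8. These values are fed by the steps between groups that the genes were picked for. For deviations of each array from its group mean, r was 0.81, 0.03 and -0.47 in the same order, pooled over the groups. DHRS9 ranked the late functional glands as HSD11B1 and HSD17B8 did, and the late regressed glands in reverse. All arrays share their normalization.

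The genes with the profile most like HSD11B1 among 12992 others with a symbol were NPTX2 (r = 0.98), HSD3B2 (0.98), STK3 (0.97), KCNK3 (0.97) and CRAT (0.96), with r of the deviations from group means between 0.84 and 0.92. HSD17B8 ranked 7 in that list. For HSD17B8 the closest were KIF25 (0.97), CYB5A (0.97), CRAT (0.97), PADI1 (0.96) and NKD1 (0.96), and HSD11B1 ranked 6. KIF25, PADI1 and NKD1, and LRTM2 below, had means at or below the low-signal level. CRAT, the mitochondrial carnitine acetyltransferase, was among the closest for both and differed by -0.61 between late regressed and mid-late glands, and CYB5A, cytochrome b5, by -0.85. These differences go with how the genes were chosen and are given with no test. For DHRS9 the closest were RER1 (0.91), CACNA1B (0.91), MTHFD1 (0.90), LRTM2 (0.90) and CDCA3 (0.89), and HSD11B1 ranked 62 and HSD17B8 607. The DHRS9 list held no gene of the other 2 lists.

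HSD3B2, the short-chain dehydrogenase that makes progesterone from pregnenolone, was the second gene of that list for HSD11B1. Falls of a gene in that list go with its likeness to a gene picked for its falls. The calls given here belong to the superfamily list below, which also holds HSD3B2. HSD3B2 fell by 3.11 from mid-late to late regressed (SE 0.33, adjusted p = 0.00548) and by 1.69 from mid-late to late functional glands (adjusted p = 0.0435), where HSD11B1 had differences of -3.13 and -1.63. Its late functional call held in 2 of the 12 fits that left out 1 array and was lost, among other settings, after median centring and under the filter on low signal. STAR, the cholesterol carrier of the same cells, differed by -0.02 between late functional and mid-late glands (adjusted p = 0.993), and CYP19A1, the aromatase, by 0.11 (adjusted p = 0.942). The other luteal markers measured differed by -0.31 (FDXR), -0.27 (NR5A1), -0.26 (NR5A2), -0.18 (INHA) and -0.04 (FDX1), and none of these was called. In late functional glands 1 to 4 HSD11B1 lay -0.98, -1.09, -1.65 and -2.81 from its mid-late mean, HSD3B2 -1.13, -1.23, -1.78 and -2.61, and STAR 0.11, 0.17, 0.01 and -0.36 from theirs. HSD11B1 and HSD3B2 were low in glands in which STAR remained within 0.36 of its mid-late mean. The mean of the 8 luteal markers, HSD3B2 among them, was also lower there (10.48 to 10.97, against 11.01 to 11.18 in mid-late glands).

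**Figure D2:**
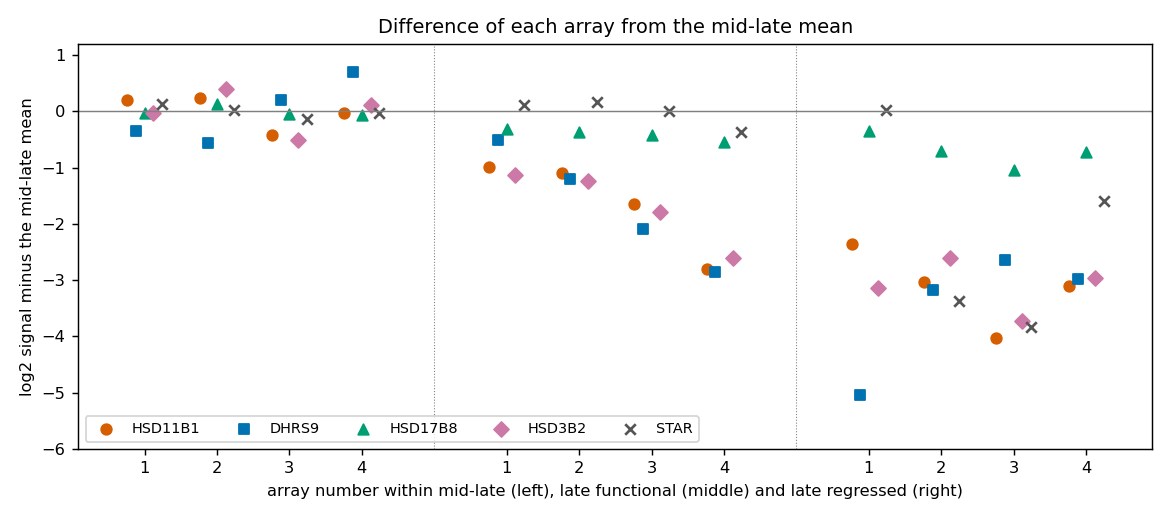
Difference of each array from the mid-late mean of the same gene, in log2 units, for HSD11B1, DHRS9, HSD17B8, HSD3B2 and STAR (1 point per gene and array; the dotted lines part the groups). HSD11B1 and HSD3B2 lie close together on late functional arrays, where STAR stays near 0, and DHRS9 drops to -5.04 on late regressed array 1, where STAR is at 0.02.

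The rest of the superfamily did not move as one. Of 67 other short-chain dehydrogenase genes listed, 47 were measured. In late regressed against mid-late glands 6 fell (12.8%, where 5.51% of all genes fell), 5 rose (10.6%, where 7.60% rose) and 36 did not pass, with a median difference of -0.10 against -0.02 over all genes. The decreases included HSD3B2, HPGD at -1.77 (adjusted p = 0.0332), DHRS13 at -1.75 (adjusted p = 0.00742) and DECR1 at -0.77 (adjusted p = 0.0321). HPGD, which inactivates prostaglandins, has 5 probe sets, and all 5 were called lower, with differences from -1.86 to -1.66. DECR1 is a reductase of mitochondrial fatty acid oxidation. The increases included DHRS3 at 0.97 (adjusted p = 0.0362), which reduces retinal to retinol, KDSR at 0.80 (adjusted p = 0.0387) of sphingolipid synthesis, SPR at 0.60 (adjusted p = 0.036) of tetrahydrobiopterin synthesis and RDH14 at 0.55 (adjusted p = 0.0426). The counts depended on single arrays: 3 genes were called lower without mid-late array 1, and without 1 array the higher count was 0 (mid-late array 3 or late regressed array 3), 1 (mid-late array 1 or 2, late functional array 3 or late regressed array 2), 2 (late functional array 1 or 2), 3 (mid-late array 4), 4 (late regressed array 4), 5 (late functional array 4) or 6 (late regressed array 1). HSD3B2 and DHRS13 were called in all 12 fits without 1 array, HPGD and DECR1 in 7, KDSR in 5, DHRS3 and SPR in 4 and RDH14 in 3. Of 3 other KDSR probe sets, 1 was called higher with all arrays. Without late regressed arrays 2 and 3, 3 genes were called lower and 0 higher. HSD3B2 and DHRS13 kept their calls there (adjusted p = 0.0243 and 0.0443), and HPGD at -1.21 (0.178) and DECR1 at -0.43 (0.104) lost theirs.

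In late functional against mid-late glands 1 of these 47 genes fell, HSD3B2, and 0 rose (12 had an unadjusted p below 0.05; limma called 0.594% of all genes lower and 0.580% higher). Between the late groups limma called 0 of 47, where it called 0.00708% of all genes, with 14 at an unadjusted p below 0.05. For counts at an unadjusted p below 0.05, here and below, the share over all genes was not counted. Such counts are therefore not read as results about a list. HPGD averaged 9.79 ± 0.84 in mid-late glands, 9.93 ± 0.37 in late functional ones and 8.02 ± 0.84 in late regressed ones (n = 4 each), with 0.14 between late functional and mid-late means (adjusted p = 0.899), where HSD11B1 had -1.63. Whether these patterns differ between the genes was not tested.

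**Figure D3:**
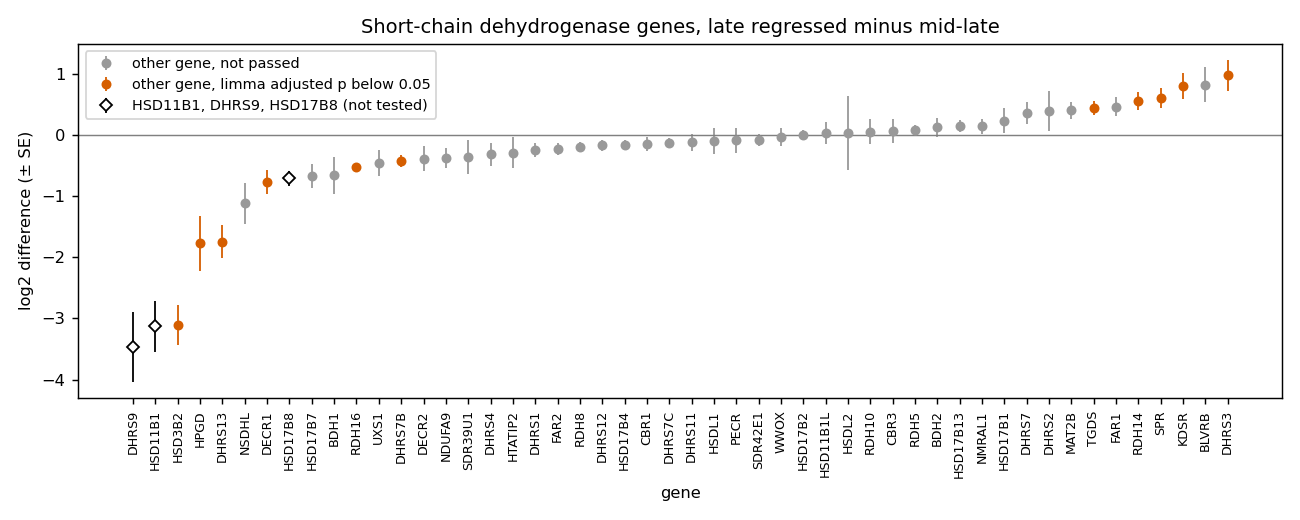
Log2 difference between late regressed and mid-late glands (± SE of limma's fit) for 47 other short-chain dehydrogenase genes and, as open diamonds, HSD11B1, DHRS9 and HSD17B8, in order of the difference. DHRS9 (-3.46), HSD11B1 (-3.13) and HSD3B2 (-3.11) lie below all others, and DHRS3 (0.97) is at the upper end. The places of DHRS9 and HSD11B1 go with their choice for falls in late glands.

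Genes that supply, convert, bind or sense cortisol were compared as the surroundings of HSD11B1. The list also holds CYP3A5, AKR1D1 and G6PC3, which do not form cortisol, so its counts do not measure cortisol supply. Of 17 listed 14 were measured, and in late regressed against mid-late glands 3 fell (21.4%, all genes 5.51%), 1 rose (7.14%, near the 7.60% of all genes) and 10 did not pass (median difference -0.16, all genes -0.02). Without late regressed gland 4, 5 were called lower, and the higher count was 3 without late regressed gland 1 and 2 without mid-late gland 4. H6PD, which feeds NADPH to HSD11B1, was at low signal in all groups (4.32 ± 0.22 in mid-late, 4.07 ± 0.26 in late regressed) and was not called (adjusted p = 0.257). SLC37A4, which carries glucose 6-phosphate to H6PD, differed by 0.02 (adjusted p = 0.901), and the brightest of 3 probe sets of NR3C1, the glucocorticoid receptor, by -0.06 (adjusted p = 0.849). The other 2 probe sets of NR3C1 differed by 0.54 (adjusted p = 0.021, called) and 0.39 (adjusted p = 0.107), and by 0.63 (adjusted p = 0.042, called) and 0.41 (adjusted p = 0.174) between late functional and mid-late glands, so its probe sets disagree. HSD11B2, the enzyme that inactivates cortisol, and NR3C2 had no probe set under their symbol and are not analysed here. MRAP, the accessory protein of melanocortin receptors, fell by 3.30 (adjusted p = 0.0108), CYP3A5, a cytochrome P450 that hydroxylates steroids, fell by 1.88 (adjusted p = 0.0104) and G6PC3, a glucose-6-phosphatase, fell by 0.74 (adjusted p = 0.0207). AKR1D1, the steroid 5-beta-reductase that also acts on cortisol and progesterone, rose by 0.88 (adjusted p = 0.0145). MC2R, the ACTH receptor that MRAP serves, lay at low signal (3.93 ± 0.12 in mid-late, 3.89 ± 0.14 in late regressed). MRAP, CYP3A5 and AKR1D1 were called in all 12 fits without 1 array and G6PC3 in 9. With all arrays, the other MRAP probe set and 1 of 2 other CYP3A5 probe sets were also called lower. Without late regressed glands 2 and 3 MRAP was at -2.14 (adjusted p = 0.0434) and CYP3A5 and G6PC3 were no longer called (0.0532 and 0.0904).

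Of 18 genes commonly induced by the glucocorticoid receptor 15 were measured, and 1 of them, CEBPD, rose in late regressed against mid-late glands (1.36, adjusted p = 0.0162; 0.83 and 0.0759 without late regressed glands 2 and 3), 0 fell and 14 did not pass. That 1 is 6.67% of the list, near the 7.60% of all genes called higher. Without late regressed gland 1, 3 were called lower and 2 higher, without late regressed gland 4 1 lower and 2 higher, without mid-late gland 4 1 lower, and without late functional gland 4 3 higher. Of the 15, 7 had an unadjusted p below 0.05, a count with no share over all genes beside it. The median difference was -0.39 against -0.02 over all genes. FKBP5, at low signal by its mean over all arrays, averaged 5.0 ± 0.40 in mid-late glands, 4.38 ± 0.15 in late functional ones and 4.48 ± 0.30 in late regressed ones (adjusted p = 0.106 for late regressed and 0.131 for late functional against mid-late). TSC22D3 (GILZ) differed by -0.13 (adjusted p = 0.757) and PER1 by -0.59 (adjusted p = 0.319) between late regressed and mid-late. In late functional against mid-late glands limma called 0 of 14 cortisol list genes and 0 of 15 response genes by brightest probe sets. The called NR3C1 probe set given above stands beside these, and 3 genes of each list had an unadjusted p below 0.05. Between the late groups the calls were also 0 and 0, with 5 and 3 genes at an unadjusted p below 0.05. Without late regressed gland 1, 2 and 2 were called lower there.

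Retinoid genes were compared as the surroundings of DHRS9. Of 28 listed 20 were measured, 7 of them at or below the low-signal level. In late regressed against mid-late glands 3 rose (15%, all genes 7.60%), 1 fell (5%, near the 5.51% of all genes) and 16 did not pass (median difference 0.04, all genes -0.02). The higher count was 0 without mid-late gland 1 or 2 or late regressed gland 2 or 3, and 1 without mid-late gland 3 or late functional gland 1 or 3, while 2 were called lower without late regressed gland 1. FABP5, a fatty acid and retinoic acid carrier, rose by 2.44 (adjusted p = 0.0295), DHRS3 and RDH14 rose as given above, and RDH16 fell by 0.52 (adjusted p = 0.00548) at low signal (4.43 ± 0.08 to 3.91 ± 0.07). RDH10, the main retinol dehydrogenase of many tissues, differed by 0.05 (adjusted p = 0.884), and ALDH1A2, which makes retinoic acid, lay at low signal (3.96 ± 0.29 and 4.31 ± 0.56). FABP5 was called in 8 of the 12 fits without 1 array and RDH16 in 12. The other FABP5 probe set was not called with all arrays. Without late regressed glands 2 and 3, FABP5 was at 1.16 (adjusted p = 0.104), DHRS3 at 0.88 (0.158) and RDH14 at 0.52 (0.15), while RDH16 remained called (0.0328). None of the 20 was called between late functional and mid-late glands (7 with an unadjusted p below 0.05) or between the late groups (5; 1 lower and 1 higher were called without late regressed gland 1).

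**Figure D4:**
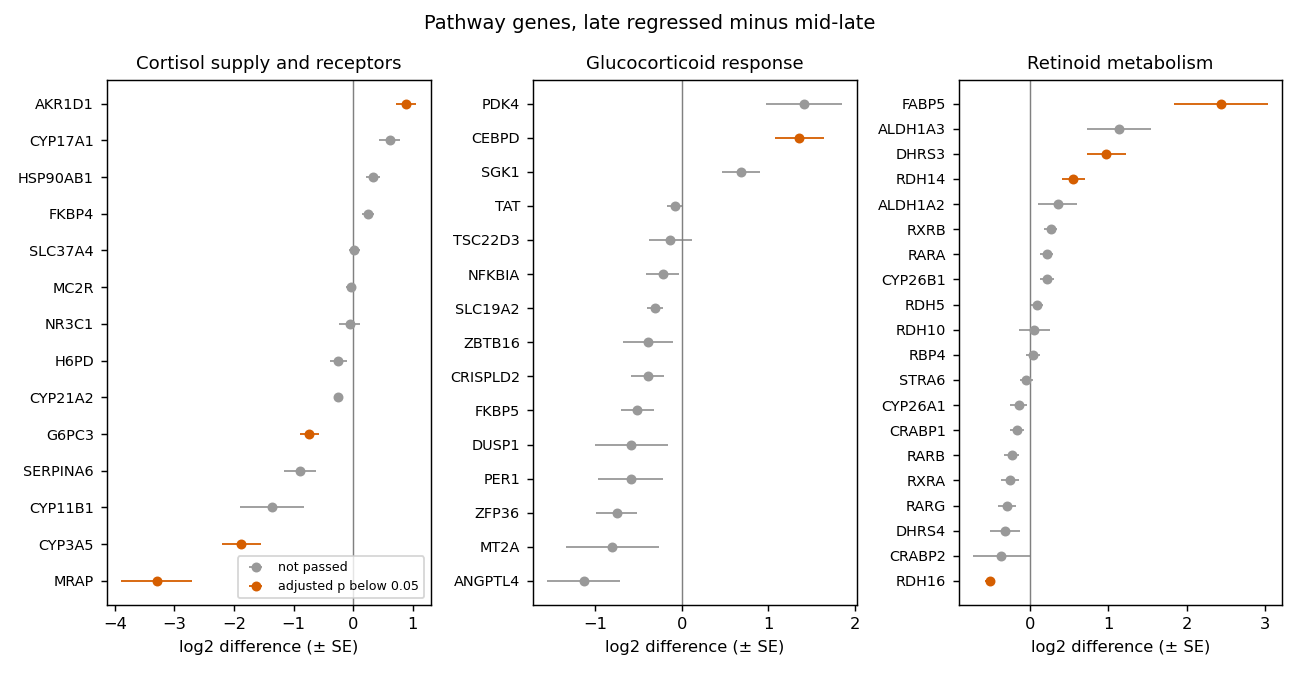
Log2 difference between late regressed and mid-late glands (± SE of limma's fit) for the measured genes of pathway lists (orange, limma adjusted p below 0.05). The lists are cortisol supply, conversion and receptors (left), glucocorticoid response (middle) and retinoid metabolism (right). MRAP (-3.30) and CYP3A5 (-1.88) have the lowest values of the left panel, SLC37A4 and the brightest NR3C1 probe set lie near 0, and CEBPD (1.36) is the called gene of the middle panel.

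Enzymes that act on progestins and oestradiol beside DHRS9 and HSD17B8 were thinly covered. Of 14 progestin-converting enzymes 6 were measured, 3 of them at or below the low-signal level, and HSD3B2 and RDH16 fell (33.3%, all genes 5.51%) and AKR1D1 rose (16.7%, all genes 7.60%) in late regressed against mid-late glands. HSD17B2, which also oxidises oestradiol, and AKR1C2 lay at low signal in all groups (HSD17B2 3.26 ± 0.07, AKR1C2 3.82 ± 0.08 in mid-late) and were not called (adjusted p = 0.956 and 0.929). AKR1C1, AKR1C3, SRD5A1 and HSD17B6 had no probe set under their symbol and are not analysed here. Of 10 genes of mitochondrial fatty acid synthesis, the second pathway of HSD17B8, 5 were measured and 0 were called by limma in late regressed against mid-late glands (2 with an unadjusted p below 0.05). Without late regressed gland 1, and after renewed quantile normalization, 2 were called lower, and 1 was under the filter on low signal. MECR, the enoyl reductase of that pathway, averaged 6.41 ± 0.35 in mid-late and 5.60 ± 0.58 in late regressed glands (difference -0.82, adjusted p = 0.0573). CBR4, the partner of HSD17B8, is not analysed here because no probe set carries its symbol.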

How the data were processed

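The authors deposited log2 values, 1 per probe set and array, made with RMA per the submitters' processing notes. The scale was judged from the range of values, and whether a quantile step was used is unknown here. After removal of 158 control probe sets, 52707 of 52865 remained. The platform annotation names a single gene for 24956 of these, and the brightest probe set by mean over 12 arrays stood for each of 14132 genes. All 12 arrays entered 1 limma fit (limma 3.58.1, R 4.3.3; lmFit and eBayes on group means), p-values were adjusted by Benjamini-Hochberg over all 52707 probe sets, and a call is an adjusted p below 0.05. The members, lists and tests were chosen with earlier results of these data known. Named genes were the members, fixed role genes, up to 4 called genes per list, comparison and direction (or up to 2 as values where none was called), the 5 most alike per member and the 3 nearest protein-coding genes on each side in RefSeq's table of assembly T2T-MMU8v2.0. Alternatives covered signal filters, scaling, priors, samples fitted, array weights, covariates, probe set choice and left-out arrays. Scan batches, raw intensities and sequences were not used here. The fit was run on simulated data with independent noise around a mean common to all arrays, into which set changes were placed. No simulated array stood apart as late regressed arrays 2 and 3 do, so this run does not show how reliable the calls are. The labels call the arrays biological replicates, and their number limits the precision.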

Additional observations from a re-analysis of the deposited data

How the results depend on the processing

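The differences of HSD11B1, DHRS9 and HSD17B8 kept their sign under all 24 alternatives in each of the 3 comparisons, and none passed the threshold between the late groups (limma adjusted p from 0.0512 to 0.642, from 0.133 to 0.59 and from 0.0631 to 0.929). Leaving out 1 array gave, for late regressed minus mid-late, -3.39 to -2.83 for HSD11B1, -3.73 to -2.93 for DHRS9 and -0.83 to -0.60 for HSD17B8; for late functional minus mid-late, -1.85 to -1.24, -2.05 to -1.26 and -0.44 to -0.37; and between the late groups, -1.89 to -1.20, -2.20 to -1.27 and -0.42 to -0.18. With the mean of the NC probe sets as a covariate, late regressed minus mid-late was -2.24 for HSD11B1, -4.33 for DHRS9 and -0.43 for HSD17B8, and late functional minus mid-late was -0.88 for HSD11B1, -2.40 for DHRS9 and -0.17 for HSD17B8; renewed quantile normalization gave -0.52 for HSD17B8. The cause was not tested.

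Of the other short-chain dehydrogenase genes, 6 were called lower and 5 higher in late regressed against mid-late glands. The lower count was 3 with only the 2 groups fitted, 3 without late regressed arrays 2 and 3, and 0 with the NC covariate; the higher count was 1, 0 and 0 there, 1 after renewed quantile normalization, 1 with array weights and 3 with the 3′ to 5′ covariate. Without 1 array the lower count ran from 3 to 8 and the higher count from 0 to 6, with 0 called higher without mid-late array 3 or late regressed array 3. In late functional against mid-late glands the single lower call became 0 under the signal filter, after median centring and with the NC covariate, and 3 with array weights; higher calls were 3 with only the 2 groups fitted, 2 with array weights and 2 without late regressed arrays 2 and 3, and leaving out 1 array gave 0 or 1 lower calls. The called NR3C1 probe set was not followed through the alternatives. No gene named with a call by its brightest probe set kept it with the NC covariate. That covariate itself steps from mid-late to late glands, and it widened the SE of late regressed minus mid-late differences. The SE went from 0.41 to 0.70 for HSD11B1, from 0.57 to 1.04 for DHRS9 and from 0.12 to 0.21 for HSD17B8. The lost calls therefore do not tell the covariate from the group. Between the late groups 1 was called lower without late functional array 4 and 3 without late regressed array 1.

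The deviations of same-numbered arrays from their group means had correlations from -0.122 to 0.296 over 12 pairs. Differently numbered arrays were not set beside them, so whether the numbers pair the glands was not settled. With the replicate number as a block the 3 differences between the late groups were -1.50, -1.80 and -0.30 (adjusted p = 0.221, 0.343 and 0.36), the higher count was 2 in late regressed and the lower count 0 in late functional against mid-late glands.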

Other observations

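The measured genes that lie beside HSD11B1, DHRS9 and HSD17B8 on their chromosomes did not pass the test. Of the 3 nearest protein-coding genes on each side of each, 18 in all, 12 were measured, 6 of them at or below the low-signal level. Limma called 0 of the 12 in any comparison. Over all genes it called 5.51% lower and 7.60% higher in late regressed against mid-late glands. These shares were 0.594% and 0.580% in late functional against mid-late glands, and 0.00708% in either direction between the late groups. So few genes cannot set 0 calls apart from these shares. In the same order of comparisons, 4, 2 and 1 of the 12 had an unadjusted p below 0.05, with no share over all genes beside it. G0S2, an inhibitor of triglyceride lipolysis that neighbours HSD11B1, had the largest differences from mid-late, with 9.49 ± 0.42 in mid-late glands, 8.55 ± 0.44 in late functional ones and 8.45 ± 0.67 in late regressed ones (n = 4 each; adjusted p = 0.159 and 0.0636 against mid-late). Beside HSD17B8, RXRB, a retinoid X receptor, averaged 6.59 ± 0.12, 6.82 ± 0.09 and 6.84 ± 0.10 (adjusted p = 0.157 and 0.0647) and RING1, a Polycomb protein, 7.92 ± 0.06, 7.94 ± 0.10 and 8.27 ± 0.33 (adjusted p = 0.966 and 0.109). Beside DHRS9, BBS5 averaged 7.11 ± 0.12, 7.19 ± 0.09 and 7.14 ± 0.30.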
